A study of Mus musculus with 12 samples.

Results

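Aminoacyl-tRNA synthetases are the enzymes that join each amino acid to its tRNA. The 35 genes described here were taken by symbol from a list of 20 synthetases of the cytosol and 15 of the mitochondrion, the symbols of the mitochondrial enzymes ending in 2. All 35 were listed in every library, out of 18255 genes listed in any, and all 35 passed the filter on low counts, so no member was lost. RNA came from 3T3-L1, a mouse line of fibroblast-like preadipocytes, and each of 4 groups had 3 libraries. The groups were LIGHT-Diff, a line that overexpresses LIGHT after culture with a cocktail for beige adipocytes, NC-Diff, the control line after the same culture, and LIGHT-Undiff and NC-Undiff, the same lines before it. LIGHT, the product of Tnfsf14, is a cytokine of the tumour necrosis factor family. The cocktail held dexamethasone, IBMX, rosiglitazone, tri-iodothyronine, indomethacin and insulin, and was followed by a maintenance medium with rosiglitazone, tri-iodothyronine and insulin. The sources used here do not give how LIGHT was introduced, whether a line is a single clone, or the day of harvest. Nothing in the labels states that a group's libraries are separate cultures, so p-values measure only the spread between these samples, which may be technical.

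As a rule a synthetase recognises 1 amino acid and its tRNAs, and it spends ATP to make the charged tRNA that the ribosome uses. The nucleus encodes a set for the cytosol, part of it held in a multisynthetase complex, and a largely separate set that is imported into mitochondria to translate the few proteins of the mitochondrial genome, which are subunits of the respiratory chain. Kars and Gars each serve both compartments from a single gene. Many cytosolic synthetase genes are known targets of ATF4, the transcription factor of the integrated stress response, while NRF1 and ETS-family factors are known for promoters of nuclear genes of the mitochondrion. Fat cells that turn thermogenic are known for gaining mitochondria.

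Promoter letters are shown because ATF4 and NRF1 are the regulators named for these gene sets. RefSeq promoter windows (GRCm38.p6) were at hand for 26 of the 35 members, 13 of each compartment, and 3 short motifs were searched on both strands of the 250 bases before each start. The ATF4 composite element TGATGNAA was found in 3 of 13 cytosolic windows (Aars, Gars and Tars) and in 0 of 13 mitochondrial ones, and 3.53% of 27025 windows of all genes held it. The NRF1 element, GCGCA then any base then GCGC, was found in 2 of 13 cytosolic windows (Kars and Tars) and in 0 of 13 mitochondrial ones, against 3.86% of all windows. The ETS element CCGGAAG was found in 4 of 13 cytosolic windows (Farsa, Gars, Mars and Sars) and in 2 of 13 mitochondrial ones (Mars2 and Sars2), against 7.05% of all windows. No 2 of these motifs overlap in a printed window. The 3 windows with the ATF4 letters follow, with those of Nars2, which had the highest rise on differentiation in both lines over all libraries, and of Yars2, whose response differed most between the lines, for comparison. Each runs 5′ to 3′ in the direction of its gene and ends at the base before the annotated start. Capitals mark the motif matches, where TTGCATCA and TTTCATCA are the ATF4 letters read on the other strand, CTTCCGG in Gars is the ETS letters read on the other strand, and GCGCTTGCGC in Tars is the NRF1 letters read on the other strand. Aars lies on the plus strand at chr8:111033592-111033841, Gars on the plus strand at chr6:55037751-55038000, Tars on the minus strand at chr15:11399659-11399908, Nars2 on the plus strand at chr7:96951277-96951526 and Yars2 on the plus strand at chr16:16302715-16302964.
Aars: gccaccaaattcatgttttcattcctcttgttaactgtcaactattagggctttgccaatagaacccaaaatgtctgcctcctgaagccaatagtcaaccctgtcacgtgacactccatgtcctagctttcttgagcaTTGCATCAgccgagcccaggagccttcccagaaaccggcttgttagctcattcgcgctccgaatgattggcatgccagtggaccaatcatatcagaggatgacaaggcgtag
Gars: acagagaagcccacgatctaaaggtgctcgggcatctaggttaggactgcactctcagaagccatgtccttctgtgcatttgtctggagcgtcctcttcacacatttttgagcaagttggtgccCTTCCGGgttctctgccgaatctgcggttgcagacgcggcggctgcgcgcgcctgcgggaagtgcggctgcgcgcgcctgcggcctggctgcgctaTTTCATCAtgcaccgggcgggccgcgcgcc
Tars: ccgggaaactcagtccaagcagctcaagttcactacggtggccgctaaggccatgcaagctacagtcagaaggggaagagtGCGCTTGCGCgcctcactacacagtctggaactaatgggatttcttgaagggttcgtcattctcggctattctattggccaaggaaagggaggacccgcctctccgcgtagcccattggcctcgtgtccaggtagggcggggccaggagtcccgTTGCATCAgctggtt
Nars2: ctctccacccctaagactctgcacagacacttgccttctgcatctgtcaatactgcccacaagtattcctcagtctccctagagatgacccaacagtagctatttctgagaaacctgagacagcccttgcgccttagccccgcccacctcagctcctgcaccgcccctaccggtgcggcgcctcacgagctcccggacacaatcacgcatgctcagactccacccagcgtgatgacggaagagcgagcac
Yars2: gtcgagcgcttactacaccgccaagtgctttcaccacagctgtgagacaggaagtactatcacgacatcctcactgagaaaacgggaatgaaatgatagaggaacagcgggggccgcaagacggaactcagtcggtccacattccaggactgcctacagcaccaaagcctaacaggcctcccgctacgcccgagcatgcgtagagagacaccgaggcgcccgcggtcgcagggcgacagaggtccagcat
A match is a description of letters, and its absence says only that the letters are not in this window.

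The overexpressed gene checks the labels and comes first. Tnfsf14 had 0, 148 and 122 expected counts in LIGHT-Diff 1 to 3, 113, 0 and 0 in NC-Diff 1 to 3, 38, 53 and 58 in LIGHT-Undiff 1 to 3, and 0, 1 and 0 in NC-Undiff 1 to 3. The library labelled LIGHT-Diff 1 and the library labelled NC-Diff 1 therefore go against their labels, and the counts of calls that rest on them, with the values of the members described in full, are also given without both. Library totals ran from 16334079 to 19686675 expected counts over 14812 to 15017 listed genes. The labelled cell type was checked too, and Adipoq, the adipocyte hormone adiponectin, had 16399 to 26663 counts in differentiated libraries against 14 to 51 in undifferentiated ones. Among preadipocyte markers, Dlk1 had 10629 to 14616 counts after differentiation and 16173 to 28335 before it, and Thy1 1737 to 2477 and 3863 to 4742. Col1a1 overlapped between the stages, at 70595 to 105719 and 63624 to 130068. Pdgfra had 1659, 4862 and 3852 counts in LIGHT-Diff 1 to 3 and 4511, 1559 and 1836 in NC-Diff 1 to 3. Before differentiation Pdgfra had 2925 to 3418 in LIGHT and 1603 to 2015 in control cells. The epithelial and muscle markers Epcam and Myod1 were at 0 in all 12 libraries, and Des, an intermediate filament of muscle and of some mesenchymal cells, had 233 to 467 counts in differentiated libraries and 108 to 130 in undifferentiated ones. Lyz2, a leukocyte gene, had 0 to 5 counts in differentiated libraries, 5 to 10 in LIGHT-Undiff and 35 to 39 in NC-Undiff, while the leukocyte marker Ptprc had at most 11. Cd68, a macrophage gene, had 17 to 39 counts in LIGHT-Diff, 15 to 28 in NC-Diff, 6 to 9 in LIGHT-Undiff and 18 to 26 in NC-Undiff. Krt8, an epithelial keratin, had 14 to 129 counts in differentiated libraries and 0 to 5 in undifferentiated ones. The 15 markers of leukocytes, endothelium, epithelium and muscle summed to 17.6 to 32.7 CPM of library totals in LIGHT-Diff, 16.9 to 31.4 in NC-Diff, 8.04 to 10.2 in LIGHT-Undiff and 11.2 to 11.9 in NC-Undiff. The part of these markers in the results was not tested. In bulk RNA, fewer cells of a type and less RNA per cell cannot be told apart.

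Cytosolic synthetase RNA made up less of the differentiated libraries and mitochondrial synthetase RNA more, in both lines. Summed over the 20 cytosolic genes, the level was 4897, 4251 and 4450 CPM in LIGHT-Diff 1 to 3 and 4235, 4908 and 4898 CPM in NC-Diff 1 to 3. It was 6100, 6030 and 5898 CPM in LIGHT-Undiff 1 to 3 and 5975, 6208 and 6301 CPM in NC-Undiff 1 to 3. CPM here are scaled by TMM, edgeR's correction for library composition. Every differentiated library lay below every undifferentiated one, and among the differentiated libraries NC-Diff 1 was the lowest of its group and LIGHT-Diff 1 the highest of its own.

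The 15 mitochondrial genes summed to 494, 453 and 457 CPM in LIGHT-Diff 1 to 3 and to 455, 502 and 519 CPM in NC-Diff 1 to 3. They summed to 315, 303 and 308 CPM in LIGHT-Undiff 1 to 3 and to 362, 358 and 357 CPM in NC-Undiff 1 to 3. Here every differentiated library lay above every undifferentiated one, and LIGHT-Undiff was the lowest group, with no overlap with NC-Undiff. The ratio of the cytosolic to the mitochondrial sum was 9.68 ± 0.277 in LIGHT-Diff and 9.51 ± 0.237 in NC-Diff, against 19.5 ± 0.379 in LIGHT-Undiff and 17.2 ± 0.597 in NC-Undiff (SD, n = 3 libraries each). Without LIGHT-Diff 1 and NC-Diff 1 the ratio averaged 9.56 in LIGHT-Diff and 9.60 in NC-Diff. A few abundant genes weigh most in such sums, so the members are given singly below.

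**Figure D1:**
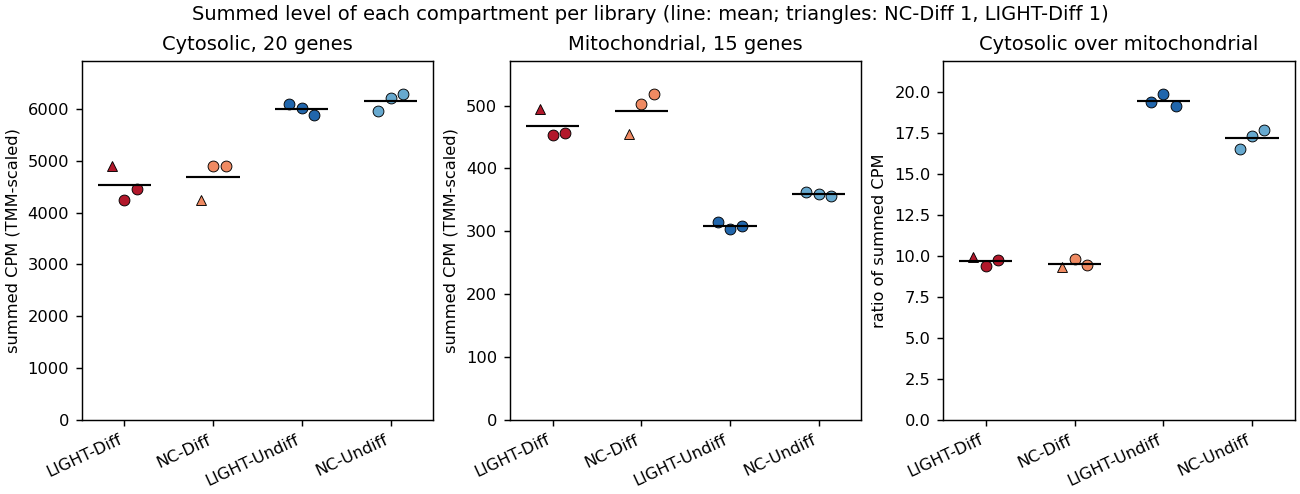
Summed TMM-scaled CPM of the 20 cytosolic (left) and 15 mitochondrial (middle) synthetases and the ratio of the 2 sums (right, vertical axes from 0) in each of the 12 libraries, grouped along the horizontal axis. Points are libraries, lines are group means and triangles are LIGHT-Diff 1 and NC-Diff 1; the ratio is 9.31 to 9.92 in the differentiated libraries and 16.5 to 19.9 in the undifferentiated ones.

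Levels can be compared between genes only per length, as FPKM, and there the compartments were far apart. The median cytosolic synthetase had 56.3 ± 2.57 FPKM in LIGHT-Diff, 56.1 ± 1.83 in NC-Diff, 70.1 ± 0.955 in LIGHT-Undiff and 78.3 ± 4.68 in NC-Undiff. The median mitochondrial one had 8.18 ± 0.337 FPKM in LIGHT-Diff, 8.63 ± 0.401 in NC-Diff, 6.67 ± 0.183 in LIGHT-Undiff and 7.19 ± 0.499 in NC-Undiff (SD, n = 3 libraries). The median of all listed genes was 6.52 to 7.47 FPKM in a library, so the mitochondrial synthetases sat near the middle of the listed genes and the cytosolic ones well above it. Aars, for alanine, and Gars, for glycine, were the 2 most abundant members, with means over the 12 libraries of 249 and 262 FPKM, while Wars2, the mitochondrial tryptophan enzyme, was the least abundant with 2.68 FPKM. Yars2 and Iars2, for tyrosine and isoleucine, were the most abundant mitochondrial members at 23.3 and 26.3 FPKM.

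In the control line, differentiation lowered 15 of 20 cytosolic synthetases and raised none, and it raised 9 of 15 mitochondrial ones and lowered 1. Over all 12993 genes tested, 32.2% rose and 31.7% fell in this comparison, 63.9% in all, so a call as such was common here. The median log2 fold change was -0.41 for the cytosolic members and 0.53 for the mitochondrial ones, beside 0.0005 over all genes tested. Every NC-Diff library lay below every NC-Undiff library in 16 cytosolic and 1 mitochondrial members, where 34% of genes did so, and above in 1 cytosolic and 11 mitochondrial members, where 33.6% of genes did so. Calls are adjusted p under 0.05 by edgeR's quasi-likelihood test with Benjamini-Hochberg adjustment over all genes tested, and all log2 fold changes are of that fit unless another is named. Without LIGHT-Diff 1 and NC-Diff 1, 35.8% of 13150 genes rose and 34.9% fell (70.7% in all), 15 cytosolic members fell and 2 rose (Eprs and Yars), and 11 mitochondrial members rose with none lowered. In that smaller fit the 15 cytosolic falls were those of the larger one. Eprs and Yars were at 0.16 each there, and over all libraries their sign depended on the scaling, at 0.03 and 0.10 with TMM and -0.09 and -0.01 with library totals.

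Among the cytosolic enzymes the valine, leucine, threonine and isoleucine synthetases fell most. Vars had 158, 183 and 186 CPM in NC-Diff 1 to 3, against 303, 297 and 329.9 CPM in NC-Undiff 1 to 3, a log2 fold change of -0.82 ± 0.088 (SE; edgeR adjusted p = 3.98e-06). Lars, of the multisynthetase complex and known also as a leucine sensor upstream of mTORC1, had 159.5, 216 and 205 CPM in NC-Diff and 337, 345 and 336 CPM in NC-Undiff, a log2 fold change of -0.81 ± 0.102 (edgeR adjusted p = 1.65e-05). In both genes all differentiated libraries were below all undifferentiated ones, and NC-Diff 1 was the lowest. Tars had 221, 263 and 259 CPM in NC-Diff, against 391, 434 and 427 CPM in NC-Undiff, with a log2 fold change of -0.75 ± 0.083 (edgeR adjusted p = 4.93e-06). Iars, a further enzyme of the complex, had 137, 179 and 176 CPM in NC-Diff, against 265, 275 and 255 CPM in NC-Undiff, with a log2 fold change of -0.69 ± 0.109 (edgeR adjusted p = 0.000118). These 2 genes likewise showed no overlap between the stages. Setting aside LIGHT-Diff 1 and NC-Diff 1 gave -0.73 for Vars, -0.67 for Lars, -0.66 for Tars and -0.55 for Iars, all still called. The other falls, as log2 fold changes, were -0.69 for Nars, -0.57 for Wars, -0.53 for Rars, -0.51 for Aars, -0.49 for Hars, -0.46 for Kars, -0.35 for Cars, -0.28 for each of Farsa, Farsb and Mars, and -0.27 for Qars. Farsa and Farsb encode the 2 subunits of the phenylalanine enzyme, and their falls were of like size. Leaving out NC-Diff 1 alone ended the calls of Farsb, at a log2 fold change of -0.20 (edgeR adjusted p = 0.0598), and of Mars, at -0.17 (edgeR adjusted p = 0.0972). The 5 members not called, Dars, Eprs, Gars, Sars and Yars, had log2 fold changes from -0.15 to 0.10.

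On the mitochondrial side, Nars2, for asparagine, changed most. It had 16.7, 22.5 and 22 CPM in NC-Diff 1 to 3, against 9.99, 10.0 and 10.5 CPM in NC-Undiff 1 to 3, a 2.01-fold level and a log2 fold change of 1.01 ± 0.147 (SE; edgeR adjusted p = 6.26e-05). Fars2, which charges the mitochondrial phenylalanine tRNA as a single chain, had 26.0, 25.9 and 29.4 CPM in NC-Diff and 14.2, 14.5 and 16.2 CPM in NC-Undiff, a log2 fold change of 0.86 ± 0.100 (edgeR adjusted p = 8.54e-06). Both genes separated the stages completely. Lars2 had 29.7, 30.8 and 31.0 CPM in NC-Diff, against 16.6, 20.004 and 16.3 CPM in NC-Undiff, with a log2 fold change of 0.79 ± 0.092 (edgeR adjusted p = 8.41e-06). Ears2, for glutamate, had 22.6, 29.8 and 31.4 CPM in NC-Diff and 16.7, 15 and 15.2 CPM in NC-Undiff, a log2 fold change of 0.84 ± 0.134 (edgeR adjusted p = 0.000135). Its listed length was 5266 to 6038 bases in NC-Diff and 3951 to 4403 bases in NC-Undiff, and on log2(FPKM + 1), which divides by that length, the difference was 0.24 and not called (limma adjusted p = 0.201), where 64.3% of all genes were called. The remaining rises were 0.63 for Iars2, 0.58 for Hars2, 0.55 for Vars2, 0.53 for Rars2 and 0.45 for Mars2 as log2 fold changes, and Mars2 lost its call without NC-Undiff 1, NC-Undiff 3 or NC-Diff 2, at 0.40, 0.42 and 0.39. Yars2 was the single mitochondrial member to fall, with 33.0, 32.6 and 32.8 CPM in NC-Diff against 36.1, 36.6 and 39.3 CPM in NC-Undiff and a log2 fold change of -0.19 ± 0.064 (edgeR adjusted p = 0.0223). That call was lost on leaving out NC-Undiff 3, NC-Diff 1, NC-Diff 2 or NC-Diff 3, at values of -0.15 to -0.17, and on leaving out LIGHT-Diff 1 and NC-Diff 1 together, at -0.17 (edgeR adjusted p = 0.054). That step gave 1.15 for Nars2, 0.91 for Fars2, 0.83 for Lars2 and 0.99 for Ears2, all still called. Aars2, Pars2, Sars2, Tars2 and Wars2 were not called, with log2 fold changes from -0.06 to 0.23.

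In the LIGHT line, differentiation lowered 11 of 20 cytosolic members and raised none, and it raised 14 of 15 mitochondrial members and lowered none. Among all genes 29.5% rose and 29.1% fell in this comparison, 58.6% in all. The median log2 fold change was -0.33 for cytosolic and 0.59 for mitochondrial members, beside -0.004 over all genes tested. Every LIGHT-Diff library lay below every LIGHT-Undiff library in 14 cytosolic and 0 mitochondrial members, where 33.6% of genes did so, and above in 1 cytosolic and 14 mitochondrial members, where 33% of genes did so. Without LIGHT-Diff 1 and NC-Diff 1, 17 cytosolic members fell and 14 mitochondrial ones rose, where 32.3% of genes rose and 31.9% fell (64.1% in all).

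Lars had the largest fall among the cytosolic members called. It had 201, 172 and 174 CPM in LIGHT-Diff 1 to 3, against 321, 305 and 295 CPM in LIGHT-Undiff 1 to 3, a log2 fold change of -0.75 ± 0.102 (SE; edgeR adjusted p = 3.84e-05). Aars had 694, 713 and 735 CPM in LIGHT-Diff, against 1166, 1185 and 1169.6 CPM in LIGHT-Undiff, with a log2 fold change of -0.72 ± 0.064 (edgeR adjusted p = 1.02e-06). LIGHT-Undiff held the highest Aars levels of the study, and no library of the 2 groups overlapped in either gene. Iars had 172, 131 and 150.1 CPM in LIGHT-Diff and 236, 218 and 232 CPM in LIGHT-Undiff, with a log2 fold change of -0.60 ± 0.109 (edgeR adjusted p = 0.000447). Nars had 315, 252 and 275 CPM in LIGHT-Diff and 414, 408 and 398 CPM in LIGHT-Undiff, with a log2 fold change of -0.54 ± 0.103 (edgeR adjusted p = 0.000667). LIGHT-Diff 1 was the highest of the LIGHT-Diff libraries in Lars, Iars and Nars. With LIGHT-Diff 1 and NC-Diff 1 set aside, Lars was at -0.82, Aars at -0.69, Iars at -0.70 and Nars at -0.62, all still called. The other falls were -0.53 for Wars, -0.52 for each of Tars and Vars, -0.46 for Cars, -0.42 for each of Gars and Kars and -0.24 for Hars. The 9 members not called had log2 fold changes from -0.20 to 0.23, the top value being that of Dars, for aspartate, which was also above 0 in the control line at 0.02.

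Nars2 had the largest mitochondrial rise here too over all libraries, though not with LIGHT-Diff 1 and NC-Diff 1 set aside. It had 24.4, 18.7 and 18.1 CPM in LIGHT-Diff 1 to 3, against 9.16, 9.95 and 11.3 CPM in LIGHT-Undiff 1 to 3, a log2 fold change of 1.01 ± 0.147 (SE; edgeR adjusted p = 7.36e-05). Lars2 had 31.2, 30.7 and 27.1 CPM in LIGHT-Diff and 15.2, 14.9 and 15.1 CPM in LIGHT-Undiff, with a log2 fold change of 0.98 ± 0.092 (edgeR adjusted p = 1.69e-06). The stages did not overlap in either gene, and LIGHT-Diff 1 had the highest level of both. Mars2, whose product charges the tRNA that starts mitochondrial translation, had 10.5, 14.1 and 13.3 CPM in LIGHT-Diff, against 8.21, 5.66 and 7.62 CPM in LIGHT-Undiff, with a log2 fold change of 0.82 ± 0.165 (edgeR adjusted p = 0.000886). Iars2 had 110.1, 102 and 103 CPM in LIGHT-Diff, against 61.9, 60.5 and 62.1 CPM in LIGHT-Undiff, with a log2 fold change of 0.77 ± 0.080 (edgeR adjusted p = 3.78e-06). In both genes the lowest differentiated library was above the highest undifferentiated one. Setting aside LIGHT-Diff 1 and NC-Diff 1 gave 0.86 for Nars2, 0.95 for Lars2, 0.94 for Mars2 and 0.74 for Iars2, all still called. The other rises were 0.74 for Vars2, 0.68 for Ears2, 0.67 for Tars2, 0.59 for Fars2, 0.45 for Yars2, 0.44 for Wars2, 0.39 for Pars2, 0.33 for Aars2, 0.32 for Rars2 and 0.31 for Hars2. Ears2 was not called on log2(FPKM + 1), at 0.27 (limma adjusted p = 0.167), where 58.8% of all genes were called. Pars2 lost its call without LIGHT-Undiff 1, LIGHT-Undiff 3 or LIGHT-Diff 3, at 0.35, 0.35 and 0.27, Rars2 without LIGHT-Undiff 2, at 0.24, and Wars2 without LIGHT-Undiff 3, at 0.33. Sars2, the mitochondrial serine enzyme, was the single member not called, at -0.02, and it was not called in the control line either, at -0.06.

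**Figure D2:**
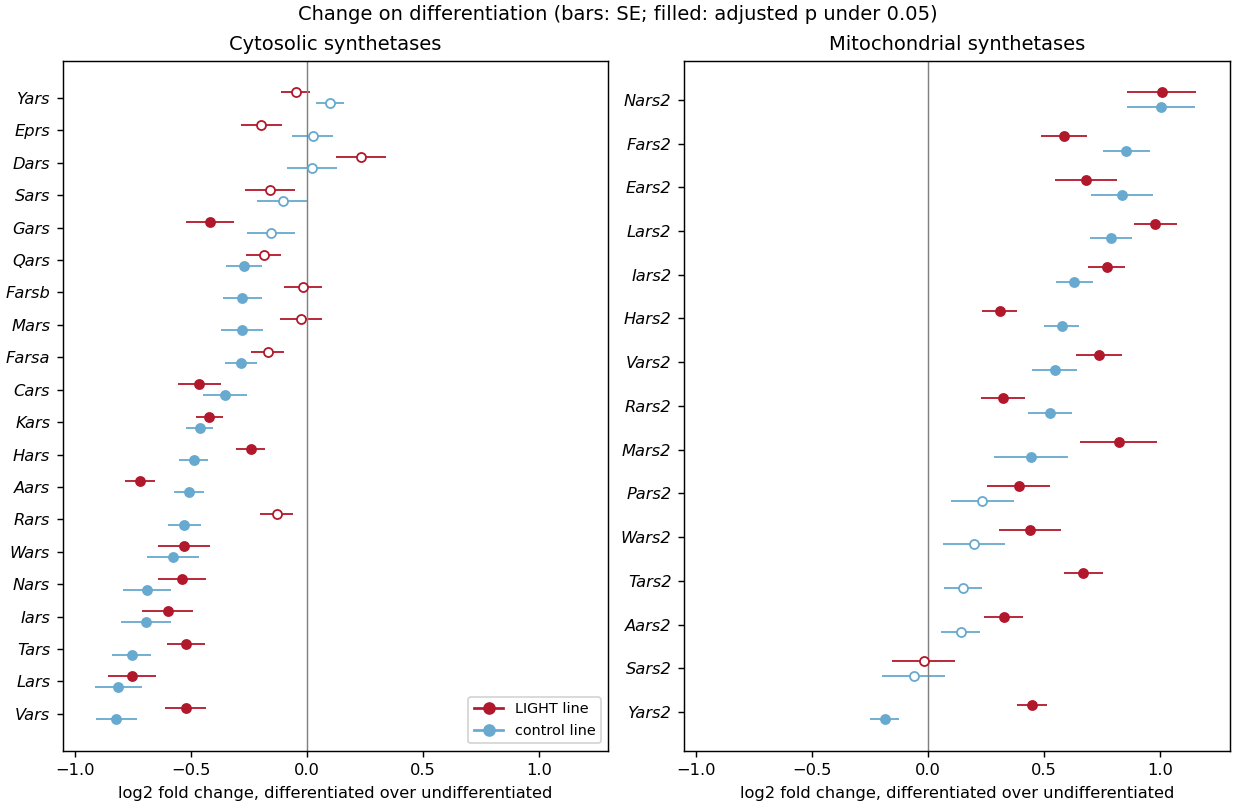
Log2 fold change (horizontal axis, differentiated over undifferentiated) of each cytosolic (left) and mitochondrial (right) synthetase (vertical axis), with the LIGHT line above the control line in each row. Bars are standard errors and filled points passed an adjusted p under 0.05; called cytosolic members all lie below 0 and called mitochondrial members all lie above 0 except Yars2 in the control line.

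Across both lines, 10 cytosolic members fell and 9 mitochondrial members rose in each, where 23.4% of all genes fell and 24.6% rose in both. In neither line were 4 cytosolic members (Dars, Eprs, Sars and Yars) and 1 mitochondrial member (Sars2) called. On setting aside LIGHT-Diff 1 and NC-Diff 1, 14 cytosolic members fell and 11 mitochondrial ones rose in both lines, where 25.3% of genes fell and 26.3% rose in both, and Dars and Sars2 were the members called in neither. Over all libraries, no member rose in either line among the 8 synthetases of the multisynthetase complex and the 12 outside it. In the complex 3 of 8 fell in the LIGHT line, with a median log2 fold change of -0.19, and 6 of 8 fell in the control line, with a median of -0.37. Outside it 8 of 12 fell in the LIGHT line, with a median of -0.44, and 9 of 12 in the control line, with a median of -0.42. By catalytic fold, 5 of 9 class I and 6 of 10 class II cytosolic enzymes fell in the LIGHT line, and 8 of 9 and 7 of 10 fell in the control line, Eprs being left out since it joins both classes. With LIGHT-Diff 1 and NC-Diff 1 set aside, 7 of 8 complex members fell in the LIGHT line and 6 of 8 in the control line, and 10 of 12 and 9 of 12 fell outside the complex. Eprs of the complex and Yars outside it then rose in the control line, where 35.8% of all genes rose, and no member rose in the LIGHT line. By class, 8 of 9 class I and 8 of 10 class II enzymes then fell in the LIGHT line, and 8 of 9 and 7 of 10 in the control line. The shares of all genes that fell, given above, were 29.1% in the LIGHT line and 31.7% in the control line, or 31.9% and 34.9% without the 2 libraries. No difference between such subsets was tested.

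Members of the 12 pairs that charge the same amino acid in the 2 compartments were then set side by side, as the ratio of cytosolic to mitochondrial FPKM. The ratio was lower in every LIGHT-Diff library than in every LIGHT-Undiff library for 12 of 12 pairs, and lower in every NC-Diff library than in every NC-Undiff library for 10 of 12. The share of such ratios over pairs of all genes was not computed. By CPM of single genes, 33.6% lay lower and 33% higher without overlap in the LIGHT line. In the control line 34% lay lower and 33.6% higher. The cytosolic partner fell and the mitochondrial one rose, both called, in 8 pairs of the LIGHT line and 7 of the control line, where 29.1% of all genes fell and 29.5% rose in the LIGHT line and 31.7% fell and 32.2% rose in the control line. With LIGHT-Diff 1 and NC-Diff 1 set aside, the ratio was lower without overlap for 12 pairs in the LIGHT line and 10 in the control line. Both partners were then called in these directions in 10 pairs of the LIGHT line and 9 of the control line. In that fit 31.9% of all genes fell and 32.3% rose in the LIGHT line, and 34.9% fell and 35.8% rose in the control line. For asparagine, Nars over Nars2 was 14.1 ± 0.0269 in LIGHT-Diff and 14.02 ± 0.276 in NC-Diff, against 41.1 ± 5.14 in LIGHT-Undiff and 47.9 ± 1.66 in NC-Undiff (SD, n = 3 libraries). For isoleucine the 2 enzymes came close to equal, with Iars over Iars2 at 1.15 ± 0.108 in LIGHT-Diff and 1.119 ± 0.0942 in NC-Diff, against 2.97 ± 0.085 in LIGHT-Undiff and 2.81 ± 0.204 in NC-Undiff. The other 2 pairs of the control line were those for serine and tyrosine. Sars over Sars2 was 19.4 ± 1.34 in NC-Diff and 19.9 ± 1.33 in NC-Undiff, while Yars over Yars2 was 2.80 ± 0.115 in NC-Diff and 2.28 ± 0.124 in NC-Undiff, a higher value after differentiation.

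**Figure D3:**
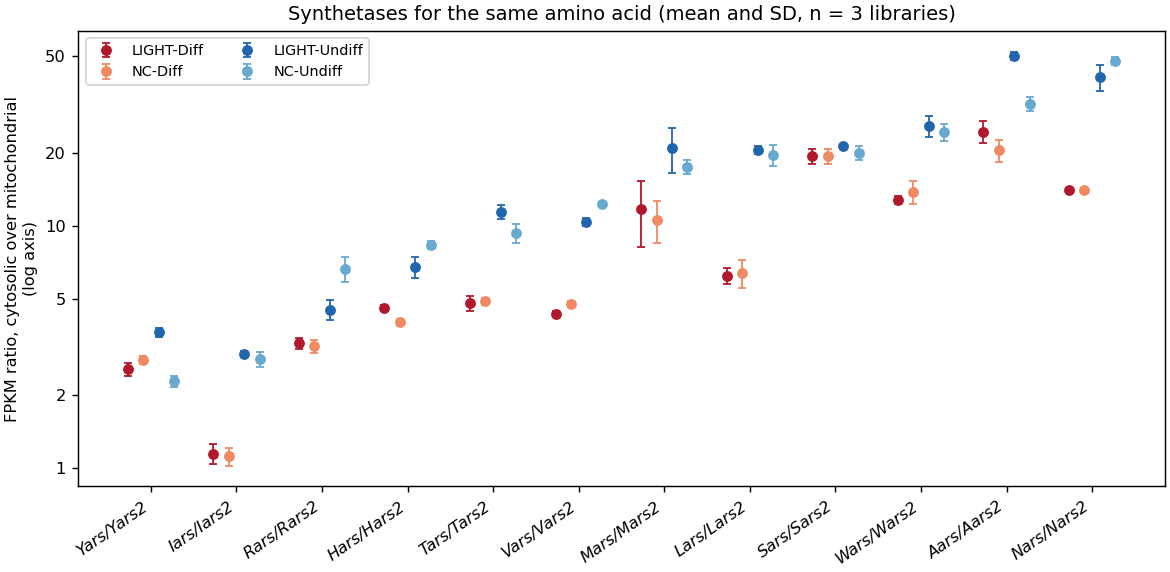
Ratio of cytosolic to mitochondrial FPKM (vertical axis, log scale) for the 12 amino acids with a listed synthetase in each compartment, as mean and SD over the 3 libraries of each group. Mean ratios of a line are lower after differentiation for all pairs except Yars over Yars2 in the control line, and Sars over Sars2 in that line is 19.4 after and 19.9 before.

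Before differentiation the LIGHT line had lower levels of several synthetases of both compartments than the control line. Of the cytosolic members 6 were lower and 1, Aars, was higher, and of the mitochondrial members 5 were lower and none higher, where 12.3% of all genes were higher and 14.2% lower, 26.5% in all. Median log2 fold changes were -0.16 for cytosolic and -0.17 for mitochondrial members, beside -0.01 over all genes tested. In 11 cytosolic and 7 mitochondrial members all LIGHT-Undiff libraries were below all NC-Undiff libraries, where 27.7% of genes were, and in 4 cytosolic members and 1 mitochondrial member they were above, where 24.6% of genes were. LIGHT-Diff 1 and NC-Diff 1 are in neither group compared here. They bear on this comparison through the spread shared in the fit, and through the filter and the scaling, which were redone without them. Without them 11 cytosolic members were lower and 4 higher (Aars, Yars, Gars and Eprs) and the same 5 mitochondrial members were lower, where 22.3% of genes were higher and 22.1% lower (44.4% in all).

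Rars, the arginine enzyme of the multisynthetase complex, had 143, 138 and 141 CPM in LIGHT-Undiff 1 to 3, against 184, 193 and 203 CPM in NC-Undiff 1 to 3, a log2 fold change of -0.46 ± 0.070 (SE; edgeR adjusted p = 0.000672). Vars had 233, 223 and 243 CPM in LIGHT-Undiff, against 303, 297 and 329.9 CPM in NC-Undiff, with a log2 fold change of -0.41 ± 0.087 (edgeR adjusted p = 0.00454). The lines did not overlap in either gene. Farsb had 97.8, 93.8 and 82.2 CPM in LIGHT-Undiff and 119, 124 and 117 CPM in NC-Undiff, with a log2 fold change of -0.40 ± 0.083 (edgeR adjusted p = 0.00445). Mars, of the same complex, had 151, 154 and 158 CPM in LIGHT-Undiff and 196, 202 and 201 CPM in NC-Undiff, with a log2 fold change of -0.37 ± 0.091 (edgeR adjusted p = 0.011). Both were lower in all 3 LIGHT libraries. Aars went the other way, with 1166, 1185 and 1169.6 CPM in LIGHT-Undiff, against 913, 967 and 1009.7 CPM in NC-Undiff, a log2 fold change of 0.29 ± 0.064 (edgeR adjusted p = 0.00637). Tars and Hars were also lower, at -0.27 and -0.22. The call of Tars was lost on leaving out any of the 6 libraries compared except NC-Undiff 1 (-0.24 to -0.29), and that of Hars without NC-Undiff 2, NC-Undiff 3, LIGHT-Undiff 1 or LIGHT-Undiff 2 (-0.18 to -0.23). The 13 cytosolic members not called had log2 fold changes from -0.30 to 0.17.

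Among mitochondrial members Yars2 had the smallest p. It had 28.0, 25.2 and 26.1 CPM in LIGHT-Undiff 1 to 3, against 36.1, 36.6 and 39.3 CPM in NC-Undiff 1 to 3, a log2 fold change of -0.50 ± 0.065 (SE; edgeR adjusted p = 0.000219). Tars2 had 31.2, 31.0 and 28.8 CPM in LIGHT-Undiff, against 43.9, 42.2 and 46.2 CPM in NC-Undiff, with a log2 fold change of -0.54 ± 0.083 (edgeR adjusted p = 0.000679). The gap between the lines exceeded the spread within either line for both genes. Mars2 had 8.21, 5.66 and 7.62 CPM in LIGHT-Undiff and 10.2, 11.9 and 10.6 CPM in NC-Undiff, with a log2 fold change of -0.61 ± 0.165 (edgeR adjusted p = 0.0171). Aars2 had 21.6, 20.3 and 21.2 CPM in LIGHT-Undiff and 27.9, 26.2 and 27.2 CPM in NC-Undiff, with a log2 fold change of -0.37 ± 0.084 (edgeR adjusted p = 0.00719). Aars2 was thus lower in the LIGHT line while its cytosolic partner Aars was higher. Iars2 was lower as well, at -0.29, and the 10 members not called had log2 fold changes from -0.23 to 0.19. Mars2 lost its call without NC-Undiff 2 or LIGHT-Undiff 2, at -0.54 and -0.46, and Iars2 without NC-Undiff 1, NC-Undiff 2, LIGHT-Undiff 1 or LIGHT-Undiff 2, at -0.23 to -0.30.

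After differentiation, as labelled, 0 of 20 cytosolic and 0 of 15 mitochondrial members differed between LIGHT-Diff and NC-Diff by edgeR, and 0 of all 12993 genes tested did (0%). At an unadjusted p under 0.05, edgeR had 0 cytosolic and 3 mitochondrial members and 523 genes in all. DESeq2 called 0 members and 1 gene (0.0077%), and limma on log2(FPKM + 1) called 0 members. Log2 fold changes ran from -0.14 to 0.08 over the cytosolic members and from -0.23 to 0.14 over the mitochondrial ones. The groups did not overlap in 0 cytosolic members and in 2 mitochondrial ones, 1 higher and 1 lower in LIGHT-Diff, where 3.36% of genes were higher and 3.42% lower without overlap.

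Without LIGHT-Diff 1 and NC-Diff 1, 14 cytosolic and 3 mitochondrial members were lower in LIGHT-Diff and none was higher, where 14.6% of 13150 genes were higher and 16.4% lower (31% in all). Median log2 fold changes were -0.26 for cytosolic and -0.16 for mitochondrial members, beside -0.01 over all genes tested. Gars had 451 and 496 CPM in LIGHT-Diff 2 and 3, against 597 and 603 CPM in NC-Diff 2 and 3, a log2 fold change of -0.35 ± 0.059 (SE; edgeR adjusted p = 0.000181). LIGHT-Diff 1 had 572 CPM and NC-Diff 1 had 469 CPM, so each of these 2 libraries sat nearer to the other line. Iars had 131 and 150.1 CPM in LIGHT-Diff 2 and 3, against 179 and 176 CPM in NC-Diff 2 and 3, with a log2 fold change of -0.34 ± 0.067 (edgeR adjusted p = 0.00067). Mars had 138 and 144 CPM in LIGHT-Diff 2 and 3, against 173 and 176 CPM in NC-Diff 2 and 3, with a log2 fold change of -0.31 ± 0.054 (edgeR adjusted p = 0.000219). Cars, for cysteine, had 119.5 and 118 CPM in LIGHT-Diff 2 and 3, against 146 and 147 CPM in NC-Diff 2 and 3, with a log2 fold change of -0.31 ± 0.056 (edgeR adjusted p = 0.000331). In all 4 genes both LIGHT libraries were below both control libraries. The other 10, Lars, Vars, Dars, Wars, Eprs, Nars, Farsb, Sars, Qars and Tars, had log2 fold changes from -0.29 to -0.19. Aars, Farsa, Hars, Kars, Rars and Yars were not called, and Aars had the highest value at 0.11.

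Of the mitochondrial members, Ears2 had 22.4 and 25.8 CPM in LIGHT-Diff 2 and 3, against 29.8 and 31.4 CPM in NC-Diff 2 and 3, with a log2 fold change of -0.35 ± 0.104 (SE; edgeR adjusted p = 0.0146). Its listed length was 4348 to 5476 bases over the LIGHT-Diff libraries and 5266 to 6038 bases over the NC-Diff ones, and limma on log2(FPKM + 1) with all libraries gave Ears2 the opposite sign, at 0.11. Aars2 had 24.9 and 25.3 CPM in LIGHT-Diff 2 and 3, against 30.1 and 32.1 CPM in NC-Diff 2 and 3, with a log2 fold change of -0.32 ± 0.088 (edgeR adjusted p = 0.00989). Iars2 had 102 and 103 CPM in LIGHT-Diff 2 and 3, against 117 and 127 CPM in NC-Diff 2 and 3, with a log2 fold change of -0.26 ± 0.073 (edgeR adjusted p = 0.0111). The lines did not overlap in these 3 genes over the 4 libraries. The 12 others were not called, and Yars2 was the single one above 0, at 0.13. With 2 libraries a group, and libraries set aside on the level of Tnfsf14, these calls rest on fewer samples than the rest.

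**Figure D4:**
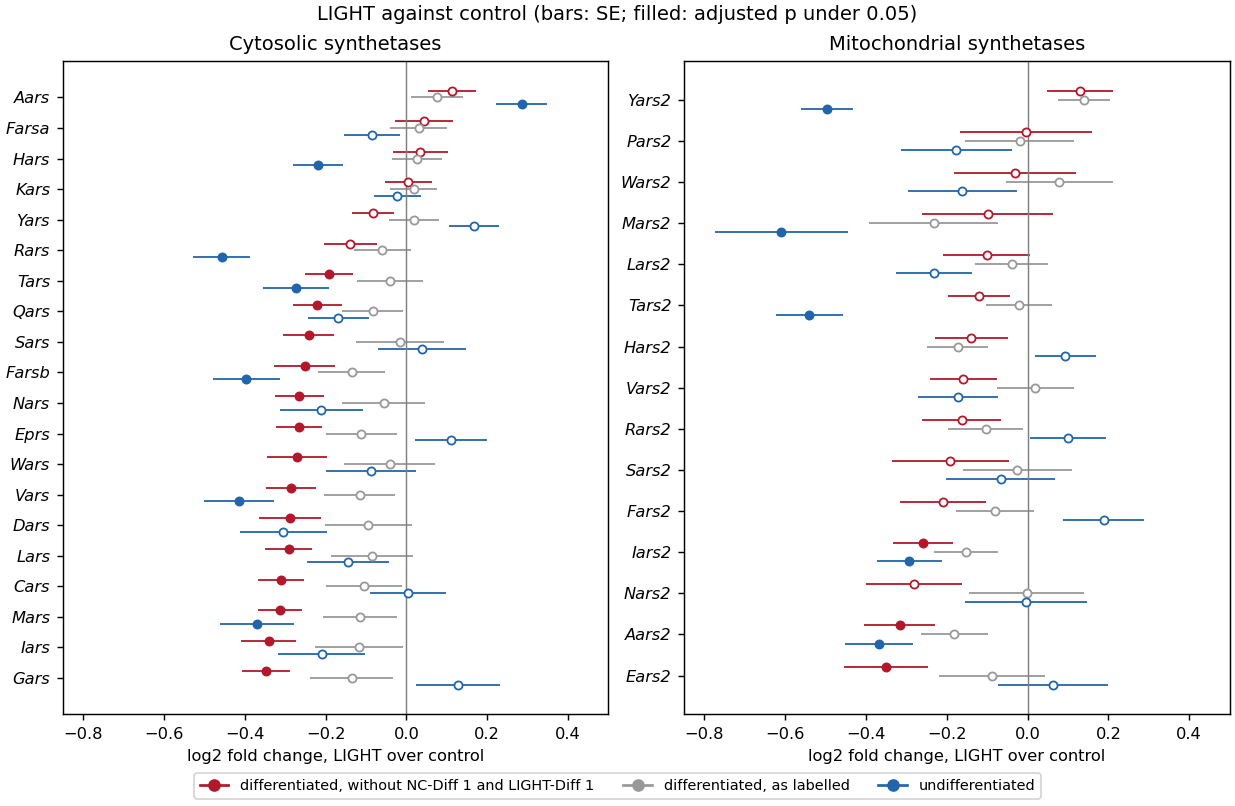
Log2 fold change of LIGHT over control (horizontal axis) for each cytosolic (left) and mitochondrial (right) synthetase (vertical axis), after differentiation without LIGHT-Diff 1 and NC-Diff 1 (red, top of each row), after differentiation as labelled (grey) and before differentiation (blue). Bars are standard errors and filled points passed an adjusted p under 0.05; no grey point is filled, while 14 cytosolic and 3 mitochondrial red points are.

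Whether the difference between the lines depended on the stage was tested as an interaction, positive where differentiation moved a gene further up in the LIGHT line than in the control line. It passed for 3 members, 1 cytosolic and 2 mitochondrial, where 5.08% of genes were positive and 4.26% negative, 9.34% in all. Yars2, which charges mitochondrial tyrosine tRNA, had 36.5, 36.0 and 35.9 CPM in LIGHT-Diff, 33.0, 32.6 and 32.8 CPM in NC-Diff, 28.0, 25.2 and 26.1 CPM in LIGHT-Undiff and 36.1, 36.6 and 39.3 CPM in NC-Undiff. Its interaction was 0.64 ± 0.091 on the log2 scale (SE; edgeR adjusted p = 0.00155). LIGHT-Undiff was the low group, with no overlap with any other, and LIGHT-Diff 1 and NC-Diff 1 each lay with the libraries of their own label in this gene.

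Tars2 had 48.4, 49.6 and 46.7 CPM in LIGHT-Diff, 42.6, 51.3 and 52.9 CPM in NC-Diff, 31.2, 31.0 and 28.8 CPM in LIGHT-Undiff and 43.9, 42.2 and 46.2 CPM in NC-Undiff, with an interaction of 0.52 ± 0.117 (SE; edgeR adjusted p = 0.0162). LIGHT-Undiff was again below all other groups, while LIGHT-Diff and NC-Diff overlapped. Rars had 132, 127 and 127 CPM in LIGHT-Diff, 124, 149 and 129.8 CPM in NC-Diff, 143, 138 and 141 CPM in LIGHT-Undiff and 184, 193 and 203 CPM in NC-Undiff, with an interaction of 0.40 ± 0.100 (SE; edgeR adjusted p = 0.0269). Here NC-Undiff stood above the other 3 groups. The Rars call was lost on leaving out NC-Undiff 2, NC-Undiff 3, any LIGHT-Undiff library, NC-Diff 3, LIGHT-Diff 2 or LIGHT-Diff 3, at values of 0.36 to 0.41, whereas Yars2 and Tars2 stayed called without any 1 library. DESeq2 called 2 cytosolic members in the interaction, where 12.6% of all genes were called.

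Without LIGHT-Diff 1 and NC-Diff 1 the interaction was 0.61 for Yars2, 0.41 for Tars2 and 0.31 for Rars, all still called, and 8 members were added, where 14.9% of genes were positive and 16.1% negative (31% in all). Hars was positive at 0.24, and 5 cytosolic members were negative, at -0.49 for Gars, -0.39 for Eprs, -0.33 for Cars, -0.29 for Sars and -0.26 for Yars. Ears2 and Fars2 were negative at -0.43 and -0.41. Gars, the lowest of these, had 451 and 496 CPM in LIGHT-Diff 2 and 3, 597 and 603 CPM in NC-Diff 2 and 3, 697, 679 and 651 CPM in LIGHT-Undiff and 612, 622 and 620.5 CPM in NC-Undiff. In that fit it was called lower in LIGHT than in control cells after differentiation and higher before it.

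**Figure D5:**
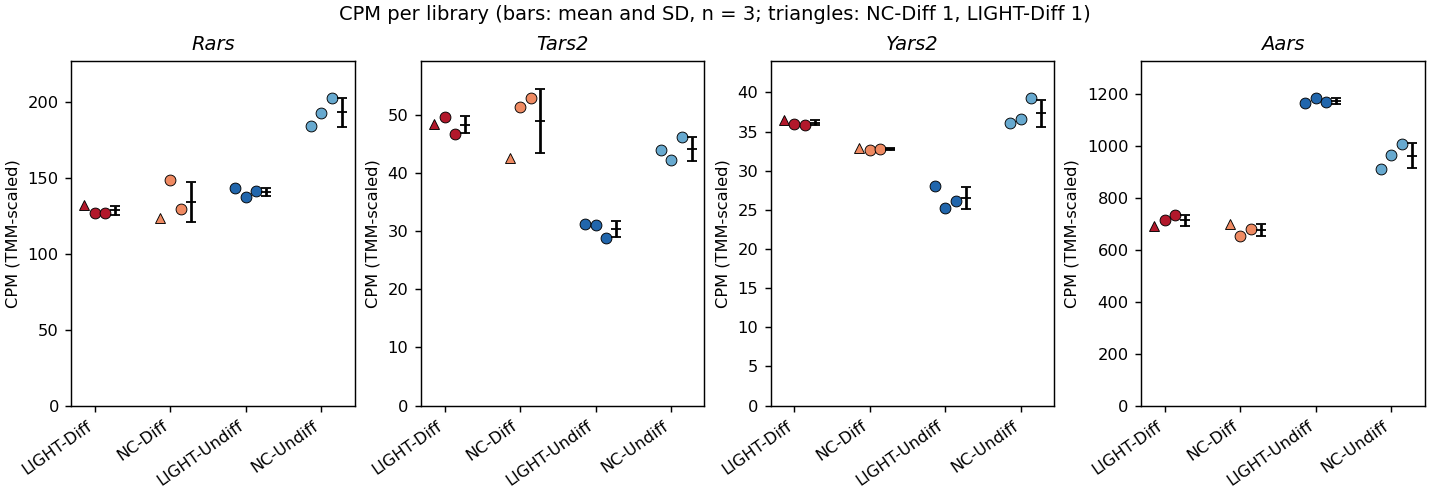
TMM-scaled CPM (vertical axes from 0) of Rars, Tars2, Yars2 and Aars in each library, by group along the horizontal axis; bars beside the points are mean and SD of 3 libraries and triangles are LIGHT-Diff 1 and NC-Diff 1. LIGHT-Undiff is the lowest group for Tars2 and Yars2 and the highest for Aars, and NC-Undiff is the highest for Rars.

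Genes that work beside the synthetases were taken from lists, and the genes named are among the 3 called members of smallest p in the comparison given. Of 4 genes for the amidation and formylation of charged mitochondrial tRNAs, all 4 rose on differentiation in each line, and Gatb, a subunit of the amidotransferase that makes mitochondrial glutaminyl-tRNA in place of a glutamine synthetase, had a log2 fold change of 1.099 in the LIGHT line and 1.105 in the control line. Of 15 mitochondrial translation factors, 10 rose and none fell in the LIGHT line, and 8 rose and 1 fell in the control line. Tufm, the mitochondrial elongation factor that delivers charged tRNA to the ribosome, had 235 ± 31.7 CPM in LIGHT-Diff against 114 ± 2.44 CPM in LIGHT-Undiff, and 249.6 ± 17.98 CPM in NC-Diff against 125 ± 3.63 CPM in NC-Undiff (SD, n = 3 libraries). Of 9 cytosolic elongation and termination factors tested, 4 fell and none rose in each line, and Gspt1, a termination factor, fell by 0.32 in the LIGHT line and by 0.56 in the control line on the log2 scale. Setting aside LIGHT-Diff 1 and NC-Diff 1 gave 3 of 4 amidation and formylation genes, 10 of 15 mitochondrial factors and 0 of 9 cytosolic factors raised in the LIGHT line, with 7 of the 9 lowered. In the control line the same step gave 4, 12 and 0 raised, with 1 mitochondrial and 5 cytosolic factors lowered. Of all genes, 29.5% rose and 29.1% fell in the LIGHT line and 32.2% rose and 31.7% fell in the control line, and without the 2 libraries 32.3% rose and 31.9% fell in the LIGHT line and 35.8% rose and 34.9% fell in the control line. No list was tested as a whole.

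Of the 3 scaffolds of the multisynthetase complex, 2 rose and none fell in the LIGHT line, and none rose and 2 fell in the control line. With LIGHT-Diff 1 and NC-Diff 1 set aside, 2 rose and 1 fell in the LIGHT line and 1 rose and 2 fell in the control line. For this list and the next, the shares of all genes were 29.5% raised and 29.1% lowered in the LIGHT line. In the control line they were 32.2% and 31.7%. Without the 2 libraries they were 32.3% and 31.9% in the LIGHT line and 35.8% and 34.9% in the control line. Aimp2 had 56.7 ± 1.18 CPM in LIGHT-Diff, 54.3 ± 3.14 in NC-Diff, 44.9 ± 1.16 in LIGHT-Undiff and 73.3 ± 6.85 in NC-Undiff (SD, n = 3 libraries). Its log2 fold change on differentiation was 0.34 in the LIGHT line and -0.43 in the control line, and the interaction was 0.77 (edgeR adjusted p = 0.0012), or 0.72 without the 2 libraries. Of 10 other synthetase-related genes, 6 rose and none fell in the LIGHT line, and 5 rose and 1 fell in the control line, against 6 and 1 in the LIGHT line and 6 and 1 in the control line without the 2 libraries. They include Cars2, the mitochondrial cysteine synthetase, with a log2 fold change of 0.40 in the LIGHT line, or 0.50 without the 2 libraries. In the control line Cars2 was at 0.10, or 0.07 without them, and was not called (edgeR adjusted p = 0.40 and 0.478).

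ATF4 also drives genes of amino acid synthesis and uptake, and 23 of 24 listed targets were tested. On differentiation 3 rose and 15 fell in the LIGHT line, and 6 rose and 11 fell in the control line, against 3 and 19 in the LIGHT line and 9 and 11 in the control line without LIGHT-Diff 1 and NC-Diff 1. Slc7a5, the light chain of a large neutral amino acid carrier, had a log2 fold change of -1.09 in the LIGHT line. Before differentiation 8 of the 23 were higher and 3 lower in the LIGHT line, with Slc7a5 at 0.59, where 12.3% of all genes were higher and 14.2% lower, and 11 were higher and 4 lower without LIGHT-Diff 1 and NC-Diff 1, where 22.3% of genes were higher and 22.1% lower. After differentiation 0 of the 23 were called as labelled by edgeR, and without LIGHT-Diff 1 and NC-Diff 1 13 were lower and none higher, where 16.4% of genes were lower and 14.6% higher, led by Chac1, which degrades glutathione, at -0.96. Of 20 regulators of the integrated stress response, 7 rose and 7 fell in the LIGHT line on differentiation, and 9 rose and 7 fell in the control line. Of all genes 29.5% rose and 29.1% fell in the LIGHT line, and 32.2% rose and 31.7% fell in the control line. The regulator counts were 8 and 10 in the LIGHT line and 10 and 7 in the control line without LIGHT-Diff 1 and NC-Diff 1. In that fit 32.3% of all genes rose and 31.9% fell in the LIGHT line, and 35.8% rose and 34.9% fell in the control line.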

How the data were processed

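The deposited tables, one per library, list expected counts and FPKM per gene, per the file headers. Per the submitters' processing notes, mm8 was the genome build. Aligner, counter and strand setting: not given in the sources used here. Therefore reads of overlapping or antisense genes cannot be told apart. Between 83.6% and 84.5% of expected counts in a library were whole, and 7 members (Hars, Mars, Qars, Ears2, Iars2, Lars2 and Tars2) had a count that was not, so part of their reads was shared out by estimate. This held in 12 libraries for Qars, in 11 for each of Mars, Lars2 and Tars2, in 7 for each of Hars and Ears2 and in 1 for Iars2. What it does to their fold changes was not tested.

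Expected counts were rounded, filtered with edgeR's filterByExpr (minimum count 10), scaled by TMM and fitted with edgeR 4.0.16 (R 4.3.3) quasi-likelihood models over all 12 libraries with 4 group means, and p-values were adjusted by Benjamini-Hochberg over all 12993 genes tested. Standard errors are the log2 fold change over the square root of F. CPM are scaled by TMM except where library totals are named. The depth of 16334079 to 19686675 expected counts per library limits precision, and a floor of 3 counts is 0.152 to 0.184 CPM of library totals.

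Alternatives were DESeq2 1.42.0, RLE factors, library totals, no filter, a minimum count of 50, limma 3.58.1 on log2(FPKM + 1), only the groups compared, the replicate number as a block, leaving out each library, and leaving out LIGHT-Diff 1 and NC-Diff 1 together (13150 genes tested). In each comparison and compartment, per-library values are given for up to 4 called members per direction with the largest log2 fold change, in the interaction for all called members, and the rest by symbol or range. Gars under the interaction, Tnfsf14, the markers and the subset of sequences shown were added to that rule with values known. The members and lists were chosen with earlier results of these data known. The synthetase classes, complex members and pathway lists come from general knowledge of the field.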

Additional observations from a re-analysis of the deposited data

Results flagged for a closer look

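Of the 35 members, 3 had a response to differentiation that differed between the LIGHT and the control line by the interaction test of edgeR, each with a positive value on the log2 scale. The difference was 0.64 for Yars2, 0.52 for Tars2 and 0.40 for Rars, where 9.34% of all genes tested passed the same test. Yars2 and Tars2 were lowest in LIGHT-Undiff, with no overlap with the other groups, and Rars was highest in NC-Undiff. The Rars value missed the threshold with the replicate number as a block (adjusted p = 0.0603) and on leaving out any of 8 of the 12 libraries. Without LIGHT-Diff 1 and NC-Diff 1 the values were 0.61, 0.41 and 0.31 for Yars2, Tars2 and Rars, all past the threshold.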

How the results depend on the processing

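Among the alternatives run, 1525 of the recomputed log2 fold changes of single members kept their direction and their side of the threshold. Of the others, 75 passed the threshold newly, 49 no longer passed it and 26 changed sign. Counts of calls and differences of medians are not in this tally. A count was held the same within 1.5 times, and a difference of medians within the spread between libraries of a group. Those that moved are given here. Leaving out LIGHT-Diff 1 and NC-Diff 1 together moved most. It gave 17 cytosolic calls in place of 11 on differentiation of LIGHT cells, 15 in place of 7 between the lines before differentiation, 14 cytosolic and 3 mitochondrial calls in place of 0 after it, and 7 cytosolic and 4 mitochondrial calls in the interaction in place of 1 and 2. The share of all genes called rose too, from 58.6% to 64.1% on differentiation of LIGHT cells. Between the lines it went from 26.5% to 44.4% before differentiation and from 0% to 31% after it, and in the interaction from 9.34% to 31%. The mitochondrial minus the cytosolic median log2 fold change was then 0.847 in place of 0.915 in LIGHT cells and 0.099 in place of 0.032 between the lines after differentiation. Limma on log2(FPKM + 1) gave 17 cytosolic calls on differentiation of LIGHT cells, where 58.8% of all genes were called. Its difference of medians was 0.767 there, and 0.791 in place of 0.933 in control cells. A fit of only the groups compared gave 13 cytosolic calls before differentiation, and DESeq2 gave 2 cytosolic calls in the interaction, where it called 12.6% of all genes. Shares of all genes were not taken for the fit of only the groups compared or for the fits without 1 library. Leaving out 1 library gave a difference of medians of 0.847 to 0.948 in LIGHT cells and of -0.041 (without NC-Diff 2) to 0.059 after differentiation, 3 to 5 mitochondrial calls before differentiation (3 without LIGHT-Undiff 2 or NC-Undiff 2), and 0 to 3 cytosolic calls in the interaction (3 without NC-Diff 1). The cause was not tested.

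Library totals set the median over all genes at -0.113 on the log2 scale on differentiation of control cells, and higher genes were 42.1% of those called there against 50.4% with TMM, while 8 mitochondrial members still rose and 16 cytosolic ones fell. Sign was checked only for members called over all libraries or without LIGHT-Diff 1 and NC-Diff 1. Values that changed sign were all of members not called over all libraries, though called without these 2 libraries. On differentiation these were Eprs in control cells (-0.09 with library totals, -0.097 with limma, and -0.033 to 0.155 on leaving out 1 library), Yars in control cells (-0.013 with library totals, -0.018 with limma) and Mars in LIGHT cells (-0.124 to 0.042 on leaving out 1 library). Between the lines after differentiation, leaving out 1 library gave -0.208 to 0.023 for Dars, -0.21 to 0.001 for Lars, -0.171 to 0.016 for Nars, -0.135 to 0.063 for Sars, -0.117 to 0.005 for Tars, -0.16 to 0.068 for Wars and -0.223 to 0.015 for Ears2. There Sars was 0.011 with library totals and 0.016 with limma, and Ears2 was 0.113 with limma. In the interaction Sars ran from -0.186 to 0.024 on leaving out 1 library, and Ears2 was 0.026 with limma.

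Libraries of the same number were not treated as pairs in the main fit, and no threshold for pairing was set. Correlations of their deviations from group means were 0.054 to 0.097 between NC-Diff and NC-Undiff and 0.036 to 0.074 between LIGHT-Diff and LIGHT-Undiff. They were -0.007 to 0.044 between LIGHT-Undiff and NC-Undiff and -0.618 to -0.292 between LIGHT-Diff and NC-Diff. Every library correlated best with its own number in the first 2 of these pairs of groups, 2 of 6 did in the third and 0 of 6 in the last. The last cannot decide on pairing, since its group means include LIGHT-Diff 1 and NC-Diff 1. The first 2 share this limit, as NC-Diff 1 enters the first and LIGHT-Diff 1 the second. With the replicate number as a block, cytosolic calls were 6 in place of 7 before differentiation, where Tars was lost, and 0 in place of 1 in the interaction, and no other count of calls changed. Depth limits the members with the lowest CPM most, such as Pars2, Wars2 and Mars2, with means of 8.32, 11.37 and 11.40 CPM over all libraries.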

Other observations

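Of 36 genes for the processing, modification and export of tRNA, all tested, 12 rose and 10 fell on differentiation in the LIGHT line, with a median log2 fold change of 0.10. In the control line 9 rose and 14 fell, with a median of -0.16. Of all genes tested, 29.5% rose and 29.1% fell in the LIGHT line, and 32.2% rose and 31.7% fell in the control line. The genes named are the called ones of smallest p. Trmu, which thiolates mitochondrial tRNAs, had 10.6 ± 0.831 CPM in LIGHT-Diff and 13.3 ± 1.2 CPM in NC-Diff, against 3.75 ± 0.862 CPM in LIGHT-Undiff and 3.72 ± 0.766 CPM in NC-Undiff (SD, n = 3 libraries). Its log2 fold change on differentiation was 1.51 in the LIGHT line and 1.84 in the control line. Trmt6, the partner of Trmt61a in the enzyme that methylates an adenosine of cytosolic tRNAs, had 38.0 ± 1.27 CPM in LIGHT-Diff, 34.9 ± 0.816 in NC-Diff, 48.5 ± 2.89 in LIGHT-Undiff and 71.6 ± 2.54 in NC-Undiff. Trmt61a had 14.5 ± 2.04 CPM in LIGHT-Diff, 12.9 ± 0.997 in NC-Diff, 13.0 ± 0.162 in LIGHT-Undiff and 24.1 ± 1.89 in NC-Undiff. NC-Undiff was thus the highest group for both subunits, and the interaction was 0.68 for Trmt6 and 1.06 for Trmt61a (edgeR adjusted p = 0.00104 and 0.00212).

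Before differentiation 3 of the 36 genes were higher and 10 lower in the LIGHT line, where 12.3% of all genes were higher and 14.2% lower. Elac2, which cuts the 3′ ends of nuclear and mitochondrial tRNA precursors, had 36.2 ± 2.01 CPM in LIGHT-Undiff and 50.1 ± 2.03 CPM in NC-Undiff, with a log2 fold change of -0.47. Pus1, a pseudouridine synthase of both compartments, rose by 1.09 on the log2 scale on differentiation in the LIGHT line, and its interaction was 0.62 (edgeR adjusted p = 0.00238). After differentiation 0 of the 36 genes were called as labelled by edgeR, and 4 were higher and 6 lower in LIGHT-Diff without LIGHT-Diff 1 and NC-Diff 1, where 14.6% of genes were higher and 16.4% lower. Without these 2 libraries 13 rose and 11 fell on differentiation in the LIGHT line, 9 rose and 15 fell in the control line, and 3 were higher and 17 lower in the LIGHT line before it. Of all genes in that fit, 32.3% rose and 31.9% fell in the LIGHT line, 35.8% rose and 34.9% fell in the control line, and 22.3% were higher and 22.1% lower before it.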
